A study of Homo sapiens with 6 samples.

Results

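The RNA levels of 4 caspases (CASP2, CASP6, CASP8 and CASP9) and 4 inhibitors of apoptosis (XIAP, BIRC2, BIRC3 and BIRC6) were followed in DU 145 cells treated with talazoparib. The 8 genes were taken by symbol from a table of 24305 genes, and all 8 passed the filter on low counts that left 14452 genes for testing. DU 145 is an established human line of castration-resistant prostate cancer, and talazoparib inhibits the ADP-ribosylating enzymes PARP1 and PARP2. The treated group held 3 libraries of cells given talazoparib for 48 h, and the control group 3 libraries of cells kept for 48 h under a label spelled "DMOS", taken as the solvent DMSO. Both groups are the same line, which the series design describes as lacking full homologous recombination repair. The labels give neither the dose sequenced nor whether replicates were separate cultures, so the spread that p-values measure here may be technical.

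Caspases are cysteine proteases made as inactive precursors, and apoptosis runs through their cleavage. CASP8 is switched on at death receptors, CASP9 on the apoptosome that APAF1 forms after cytochrome c leaves the mitochondria, and CASP2 on the PIDDosome, while CASP6 is an executioner that cuts nuclear lamins. The inhibitors share the BIR domain: XIAP binds and blocks active caspases, BIRC2 and BIRC3 (cIAP1 and cIAP2) are ubiquitin ligases of TNF receptor signalling, and BIRC6 (BRUCE or Apollon) is a very large ubiquitin-transferring enzyme. mRNA levels do not report how much of a caspase is cleaved.

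With talazoparib all 4 inhibitors fell and 1 of the 4 caspases, CASP9, rose, while CASP2, CASP6 and CASP8 did not pass the test. Levels are given as CPM, counts scaled to a common library size with the TMM method, and differences as log2 fold changes of talazoparib over control from the quasi-likelihood test of edgeR, with p-values adjusted over all 14452 genes (Benjamini-Hochberg) and a threshold of 0.05. Of all genes tested, 56.7% were called in either direction, 29.9% lower and 26.8% higher, so 4 lower and 1 higher of 8 stand beside a broad shift in both directions. The median log2 fold change of the 8 genes was -0.43, and that of all genes tested was 0.00. Talazoparib and control ranges were apart for 6 of the 8 genes, beside 64.4% of all genes. In bulk RNA, a lower level in every cell and a smaller share of cells that express a gene cannot be told apart.

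Changes across the whole transcriptome followed base composition and length. Over deciles of GC content the median log2 fold change of all genes ran from -0.73 in the lowest to 0.43 in the highest, and over deciles of deposited length it was 0.34 for the shortest genes and -0.64 for the longest. Each fold change below is therefore followed by its value from a second edgeR fit in which each library's trend over GC content and length was removed, called trend-removed. In that fit 22.5% of 13162 genes were lower and 22.3% higher. Control replicate 1 lay nearer to the talazoparib libraries than control replicates 2 and 3 did: the root mean square distance in log2 CPM was 0.58 to 0.71 for replicate 1, against 0.71 to 0.88 for the other controls. A trend of the same direction lay among the controls, in log2 CPM of replicate 1 minus the mean of replicates 2 and 3. The median of that difference was -0.23 in the lowest GC decile and 0.18 in the highest. By length it was 0.17 for the shortest genes and -0.22 for the longest. Total counts ran from 39123997 to 39585727 per library. KRT8 and KRT18, keratins of simple epithelium, stood at 265 to 400 FPKM with talazoparib and 283 to 401 FPKM in controls. The other epithelial markers were low. EPCAM was at 3.11 to 4.23 FPKM with talazoparib and 2.87 to 3.46 FPKM in controls. CDH1 was at 0.125 to 0.223 FPKM with talazoparib and 0.198 to 0.356 FPKM in controls. CTNNA1, alpha-catenin, was at 55.2 to 57.0 FPKM with talazoparib and 56.6 to 57.6 FPKM in controls. Of 9 markers of blood cells, fibroblasts and endothelium, PTPRC, CD3E and DCN were at 0 in every library. The 9 summed to 36.6 to 40.1 FPKM with talazoparib and 15.2 to 16.7 FPKM in controls, almost all of it CD68, a lysosomal membrane protein; without CD68 the sums were 0.441 to 0.585 and 0.447 to 0.525 FPKM.

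BIRC2 and BIRC3 are neighbours on one strand of chromosome 11 and both fell, and CASP9 was the caspase that rose. The 250 bases before their annotated starts are shown for that reason, from RefSeq on GRCh38.p14. BIRC2 is chr11:102346964-102347213 and BIRC3 chr11:102317234-102317483, both on the plus strand, and CASP9 is chr1:15524791-15525040 on the minus strand. RefSeq lists a second start for BIRC2 and for CASP9. Capitals mark matches, on either strand, to the NF-kB pattern (GGG, any 3 bases, then TTCC) in BIRC3 and to the SP1 box GGGCGG in CASP9.
BIRC2: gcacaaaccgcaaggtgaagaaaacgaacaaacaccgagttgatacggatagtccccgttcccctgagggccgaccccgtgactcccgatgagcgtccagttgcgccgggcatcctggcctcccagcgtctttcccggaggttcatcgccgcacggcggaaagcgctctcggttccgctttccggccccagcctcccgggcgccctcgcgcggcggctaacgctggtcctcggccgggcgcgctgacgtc
BIRC3: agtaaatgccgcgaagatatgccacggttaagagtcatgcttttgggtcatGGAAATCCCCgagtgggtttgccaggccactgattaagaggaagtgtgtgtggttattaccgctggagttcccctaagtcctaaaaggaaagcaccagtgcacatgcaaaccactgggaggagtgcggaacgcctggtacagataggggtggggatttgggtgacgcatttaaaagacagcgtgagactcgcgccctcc
CASP9: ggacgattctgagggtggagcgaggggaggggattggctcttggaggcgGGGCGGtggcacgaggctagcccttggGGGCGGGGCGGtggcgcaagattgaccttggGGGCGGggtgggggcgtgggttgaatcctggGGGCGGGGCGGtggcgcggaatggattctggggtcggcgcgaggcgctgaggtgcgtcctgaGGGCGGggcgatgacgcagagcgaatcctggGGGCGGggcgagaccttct
The BIRC3 window holds 1 NF-kB match, which begins 199 bases before the start on the minus strand, a pattern found in 5.67% of 35116 such human windows. The windows of the 7 other genes hold no such match. The CASP9 window holds 8 SP1 boxes, some sharing bases, and 42.6% of all windows hold at least 1. Every other gene but BIRC3 also has an SP1 box before at least 1 of its starts. The largest numbers in a window were 4 for CASP2, 3 for CASP6, 2 for XIAP and BIRC6, and 1 for CASP8. BIRC2 has 1, at its second start, which is not shown. GC content was 67.6% in the BIRC2 window, 52.4% in that of BIRC3 and 71.6% in that of CASP9, beside a median of 58.0% for all windows. These are matches of letters only.

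BIRC6 showed the largest fall of the 8 genes. It encodes a giant protein of the BIR family and lies at chromosome 2, 32357028 to 32618899 (GRCh38, plus strand), where its longest coding transcript has 74 exons. BIRC6 stood at 21.2, 19.3 and 15 CPM in talazoparib replicates 1 to 3, against 44.8, 87.1 and 77.7 CPM in control replicates 1 to 3. The groups did not overlap, and control replicate 1 was well below the other controls. The log2 fold change was -1.92 ± 0.23 (SE, n = 3 each; edgeR adjusted p = 9.98e-05), which puts the talazoparib level at 0.265 of that in controls. Trend-removed it was -0.95 ± 0.18 (edgeR adjusted p = 0.00418). BIRC6 has the longest deposited length of the 8 genes, 19649 nt, and all genes of its length decile had a median log2 fold change of -0.64. Falls of at least 2-fold that passed the test made up 9.75% of all genes, and BIRC6 and BIRC2 were the members of that class here.

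BIRC2 fell as well. It keeps RIPK1 and the kinase MAP3K14 (NIK) ubiquitinated, and lies at chromosome 11, 102347211 to 102378670. BIRC2 stood at 8.28, 5.42 and 8.34 CPM in talazoparib replicates 1 to 3, against 16.9, 20.2 and 19.1 CPM in control replicates 1 to 3. Every talazoparib library was below every control. The log2 fold change was -1.35 ± 0.17 (SE, n = 3 each; edgeR adjusted p = 4.66e-05), and trend-removed it was -0.72 ± 0.10 (edgeR adjusted p = 0.000203). By deposited length BIRC2 (4233 nt) is about as long as CASP2 (4219 nt), while its GC content is 38.0% against 48.9% for CASP2. The median log2 fold change of all genes in its GC decile was -0.73.

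BIRC3, a paralogue of BIRC2 that NF-kB induces, was the least abundant of the 8 and the least firmly called. It lies 7807 bp upstream of BIRC2, at chromosome 11, 102317450 to 102339403. Its raw counts were 61, 37 and 79 in talazoparib replicates 1 to 3, against 90, 134 and 118 in control replicates 1 to 3, and in CPM these are 1.59, 0.983 and 2.0 with talazoparib against 2.28, 3.26 and 2.90 in controls. The highest talazoparib library and the lowest control lay close together without overlap. The log2 fold change was -0.88 ± 0.27 (SE, n = 3 each; edgeR adjusted p = 0.0129). The call was lost without control replicate 2 (-0.79, edgeR adjusted p = 0.0667) or control replicate 3 (-0.89, edgeR adjusted p = 0.0528), and trend-removed (-0.11 ± 0.19, edgeR adjusted p = 0.691). BIRC3 has the lowest GC content of the 8 genes, 34.8%.

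XIAP, which blocks active caspases, fell least of the 4 inhibitors, and its direction depended on the composition trend. It lies at chromosome X, 123859724 to 123913979, with a deposited length of 8777 nt and 39% GC. XIAP stood at 14.2, 10.4 and 18 CPM in talazoparib replicates 1 to 3, against 20.5, 25.8 and 21.6 CPM in control replicates 1 to 3. The groups did not overlap, and talazoparib replicate 2 was the lowest library, as it was for BIRC2 and BIRC3. The log2 fold change was -0.67 ± 0.18 (SE, n = 3 each; edgeR adjusted p = 0.00730). Trend-removed it was 0.20 ± 0.10 and did not pass (edgeR adjusted p = 0.134). All genes of its GC decile had a median of -0.67, and all genes of its length decile -0.46.

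**Figure D1:**
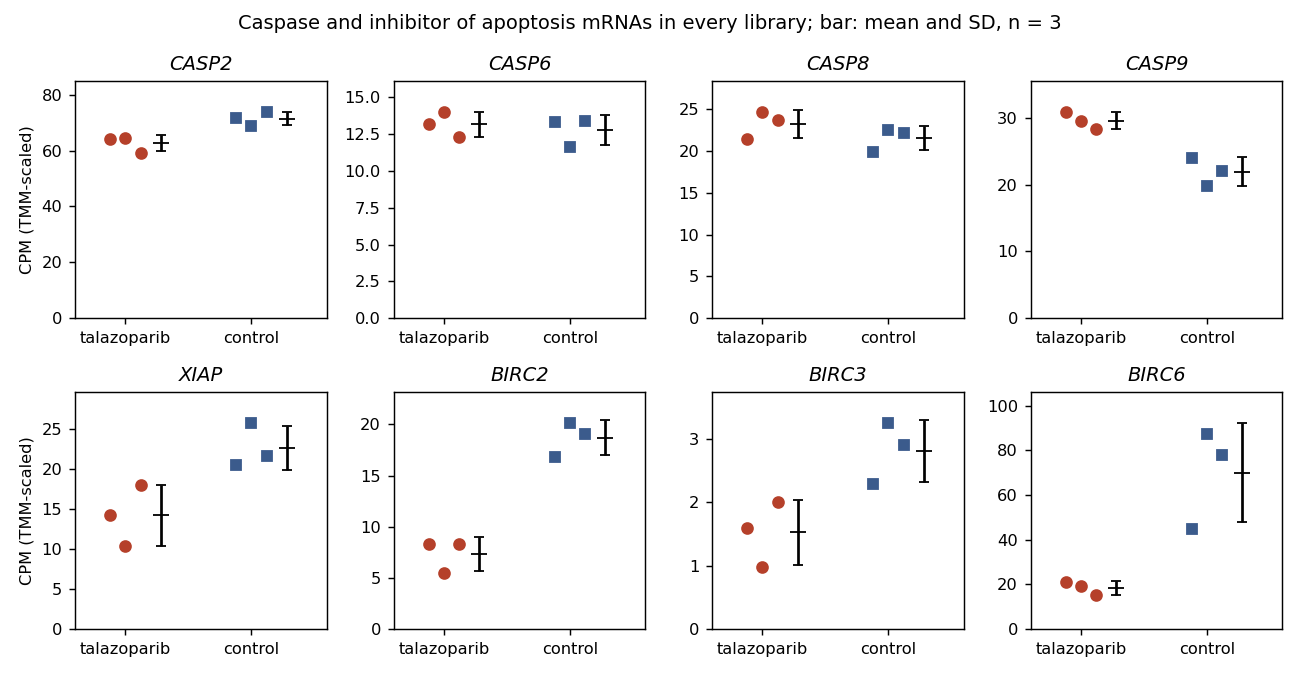
CPM of each gene in every library, with talazoparib (red circles) left of control (blue squares) and the mean ± SD of 3 libraries as a black bar. All talazoparib values lie below all control values for the 4 inhibitors and for CASP2 and above them for CASP9, while the ranges of the groups overlap for CASP6 and CASP8.

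CASP9, the initiator caspase of the mitochondrial route, was higher with talazoparib. It lies on the minus strand of chromosome 1, 15490832 to 15526534. CASP9 stood at 30.9, 29.5 and 28.3 CPM in talazoparib replicates 1 to 3, against 24.1, 19.8 and 22.1 CPM in control replicates 1 to 3. Every talazoparib library was above every control. The log2 fold change was 0.43 ± 0.11 (SE, n = 3 each; edgeR adjusted p = 0.00412), and trend-removed 0.27 ± 0.08 (edgeR adjusted p = 0.0159). With 52.8% GC it is the most GC-rich of the 8 genes, and the median of its GC decile was 0.23.

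CASP8, the initiator at death receptors, lies at chromosome 2, 201233443 to 201287711. It stood at 21.4, 24.7 and 23.7 CPM in talazoparib replicates 1 to 3, against 19.9, 22.5 and 22.2 CPM in control replicates 1 to 3. The groups overlapped, and the log2 fold change of 0.11 ± 0.11 did not pass (SE, n = 3 each; edgeR adjusted p = 0.390). Trend-removed, CASP8 was higher by 0.57 ± 0.10 (edgeR adjusted p = 0.000688). Its GC content of 42.6% is close to that of BIRC6 (43.1%), and the median of the GC decile they share was -0.53.

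CASP2, the PIDDosome caspase at chromosome 7, 143288215 to 143307696, stood at 64.1, 64.7 and 59.2 CPM in talazoparib replicates 1 to 3, against 71.6, 69.0 and 73.8 CPM in control replicates 1 to 3. The groups did not overlap, but the log2 fold change of -0.19 ± 0.08 missed the threshold (SE, n = 3 each; edgeR adjusted p = 0.0556). It passed as lower without control replicate 1 (-0.23, edgeR adjusted p = 0.0185) or control replicate 2 (-0.25, edgeR adjusted p = 0.0316) and under total count scaling (-0.26, edgeR adjusted p = 0.00575). It also passed as lower in both limma fits on FPKM, with a pseudocount of 1 (-0.25, limma adjusted p = 0.00586) and of 0.1 (-0.26, limma adjusted p = 0.00584). Trend-removed it was -0.13 ± 0.06 (edgeR adjusted p = 0.0718). CASP6, the lamin-cutting executioner at chromosome 4, 109688622 to 109703583, stood at 13.2, 14.0 and 12.3 CPM in talazoparib replicates 1 to 3, against 13.3, 11.6 and 13.4 CPM in control replicates 1 to 3. Its groups overlapped, with a log2 fold change of 0.04 ± 0.12 (SE, n = 3 each; edgeR adjusted p = 0.777) and 0.19 ± 0.10 trend-removed (edgeR adjusted p = 0.167). CASP6 shares 105 bp with MCUB on the opposite strand, and the strand setting of the counting is not given in the sources used here.

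**Figure D2:**
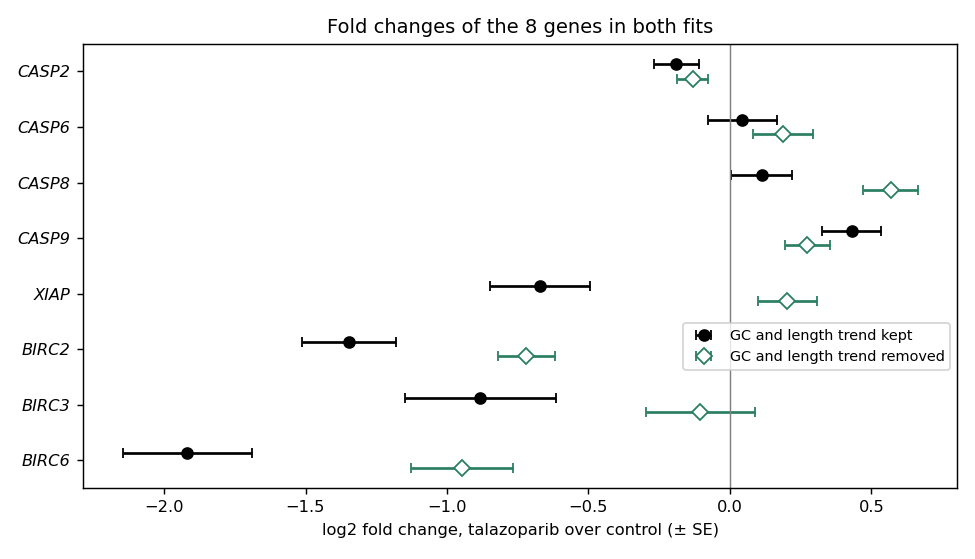
Log2 fold change of talazoparib over control (± SE) for the 8 genes, with the GC and length trend kept (black circles) and removed (open diamonds). BIRC2 and BIRC6 stay below 0 in both fits, XIAP lies at -0.67 and at 0.20, and CASP8 at 0.11 and at 0.57.

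Trend-removed, 2 of the 8 genes were lower (BIRC2 and BIRC6) and 2 higher (CASP8 and CASP9), and the median was 0.04. The inhibitors have the longer mRNAs, 4233 to 19649 nt against 1634 to 4219 nt for the caspases, and mostly the lower GC content, 34.8% to 43.1% against 42.6% to 52.8%. Among the controls, replicate 1 was the lowest library for 5 of the 8 genes, CASP8 and the 4 inhibitors. With the GC trend alone removed, BIRC2 was at -0.61, BIRC6 at -1.36, XIAP at 0.045 and BIRC3 at -0.15. With the length trend alone removed they were at -1.26, -1.09, -0.18 and -0.51, in that order. Beyond fits of this kind, the part of composition and length in the fall of the inhibitors was not tested.

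**Figure D3:**
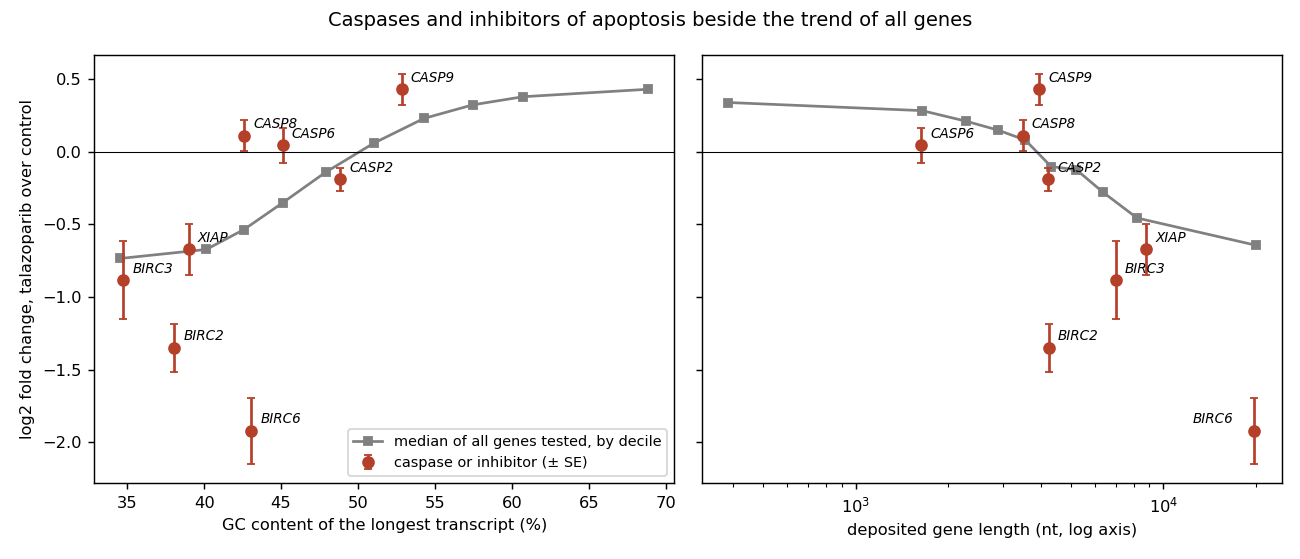
Log2 fold change (talazoparib over control, ± SE) of the 8 genes (red) against GC content, left, and deposited length on a log axis, right, with the median of all tested genes in each decile (grey squares). BIRC2 and BIRC6 lie below the grey line in both panels, XIAP close to it in both, and CASP8 above it by GC content.

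Levels of different genes were set side by side only as FPKM, which divides by gene length. CASP2 was the most abundant in both groups, at 14.5 ± 0.382 FPKM with talazoparib and 17.4 ± 0.598 FPKM in controls (SD, n = 3 each). CASP6 followed, at 7.85 ± 0.320 FPKM with talazoparib, where its range overlapped that of CASP9, and 8.02 ± 0.503 FPKM in controls. CASP9 stood above CASP8 with talazoparib (7.32 ± 0.257 against 6.50 ± 0.469 FPKM, ranges apart), and in controls CASP9 was at 5.71 ± 0.413 FPKM and CASP8 at 6.34 ± 0.573 FPKM, with ranges that overlapped. All 4 caspases were above all 4 inhibitors in each group. Among the inhibitors BIRC2 had the highest mean, at 1.70 ± 0.413 FPKM with talazoparib and 4.54 ± 0.529 FPKM in controls. With talazoparib the range of BIRC2 overlapped that of XIAP. BIRC3 came last, at 0.214 ± 0.0764 FPKM with talazoparib and 0.415 ± 0.0831 FPKM in controls. BIRC6 was sixth in controls (3.67 ± 1.24 FPKM), where its range overlapped those of BIRC2 and XIAP, and seventh with talazoparib (0.916 ± 0.142 FPKM), below the range of XIAP (1.59 ± 0.463 FPKM).

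Summed over the 4 inhibitors, FPKM came to 4.74, 3.42 and 5.08 in talazoparib replicates 1 to 3, against 8.90, 13.2 and 11.7 in control replicates 1 to 3. The 4 caspases summed to 36.2, 36.7 and 35.6 FPKM in talazoparib replicates 1 to 3, against 36.8, 36.7 and 38.8 FPKM in control replicates 1 to 3. The inhibitor sums of the groups did not overlap, with talazoparib lower. The caspase sums overlapped only narrowly, with talazoparib replicate 2 at 36.71 FPKM and control replicate 2 at 36.69 FPKM. Means of the caspase sums were 36.1 FPKM with talazoparib and 37.4 FPKM in controls. The ratio of the sums was 7.63, 10.7 and 7.01 with talazoparib, against 4.14, 2.77 and 3.32 in controls. BIRC6 made up 21.5% ± 6.20 of the inhibitor sum with talazoparib and 31.9% ± 5.46 in controls, and XIAP 35.6% ± 4.27 and 23.8% ± 2.26 (SD, n = 3 each). These sums are descriptions, with no test, and carry the same composition trend.

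**Figure D4:**
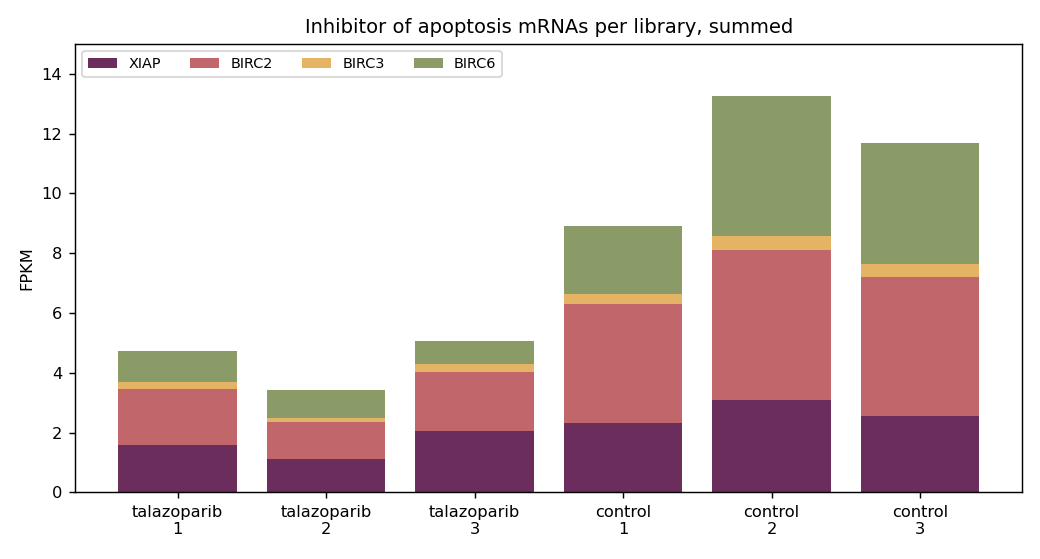
FPKM of XIAP, BIRC2, BIRC3 and BIRC6 stacked per library, talazoparib replicates 1 to 3 left of control replicates 1 to 3. The talazoparib stacks reach 3.42 to 5.08 FPKM and the control stacks 8.90 to 13.2 FPKM, with control replicate 1 the lowest control.

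Ratios between genes within a library were compared for 4 pairs chosen after their values were seen. An exact permutation test of 3 against 3, two-sided, cannot go below p = 0.1 here. The adjustment over the 4 pairs does not cover how they were chosen, so these p-values are descriptive only. CASP9 over XIAP was 4.84, 6.34 and 3.49 in talazoparib replicates 1 to 3, against 2.61, 1.70 and 2.27 in control replicates 1 to 3 (exact permutation p = 0.1, adjusted over the 4 pairs p = 0.133). CASP9 over APAF1, its activating scaffold, was 8.81, 9.72 and 5.15 with talazoparib, against 3.26, 1.93 and 2.62 in controls (exact permutation p = 0.1, adjusted p = 0.133). BIRC2 over BIRC3 was 8.61, 9.10 and 6.88 with talazoparib, against 12.2, 10.2 and 10.9 in controls (exact permutation p = 0.1, adjusted p = 0.133). For these 3 pairs the groups did not overlap, while CASP9 over CASP8 overlapped (exact permutation p = 0.3, adjusted p = 0.3). These ratios carry the composition trend. The log2 difference of CASP9 over XIAP was 1.13, beside trend-removed log2 fold changes of 0.27 for CASP9 and 0.20 for XIAP, which nearly cancel. For CASP9 over APAF1 it was 1.58, beside 0.27 and -0.38, and for BIRC2 over BIRC3 -0.44, beside -0.72 and -0.11. For CASP9 over CASP8 it was 0.32, beside 0.27 and 0.57, so trend-removed CASP8 had the larger rise.

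Other genes of the pathway were read from 8 lists of 43 genes, of which 35 were tested. Of these, 17 were higher and 4 lower, and 14 missed the threshold, beside 26.8% higher and 29.9% lower among all genes tested. Their median log2 fold change was 0.26. Trend-removed, 10 were higher and 4 lower, beside 22.3% and 22.5% of all genes in that fit, and the median was 0.01. The counts of single lists below stand beside the same shares. In the rest of the account, the number after a slash is the trend-removed log2 fold change, and adjusted p is from edgeR's test.

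CASP10, an initiator related to CASP8, rose (0.45 ± 0.16 / 0.85; edgeR adjusted p = 0.0264). That call was lost without talazoparib replicate 1 (0.47) or 3 (0.41), control replicate 1 (0.36) or 3 (0.36), with the replicate block (0.46, edgeR adjusted p = 0.0532), and under total count scaling (0.38) and both FPKM fits with limma. Of the inflammatory and epidermal caspases, CASP4 was tested and did not pass (-0.11 / -0.06; edgeR adjusted p = 0.691). CASP1 and CASP14 had 0 counts in every library, which allows up to 0.0767 CPM for a floor of 3 counts, and CASP5 was not analysed here.

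BIRC5 (survivin), a BIR protein of the mitotic chromosomal passenger complex, rose. It stood at 487 ± 41.8 CPM with talazoparib and 375 ± 34.6 CPM in controls (SD, n = 3 each; log2 fold change 0.38 ± 0.09 / 0.18; edgeR adjusted p = 0.00306). BIRC7 had 0 to 2 counts and NAIP 0 to 4 counts per library and were not tested. BIRC8, a relative of XIAP, was not analysed here.

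In the apoptosome and PIDDosome list, APAF1 fell, PIDD1 rose and CRADD did not pass. APAF1, the scaffold on which CASP9 is activated, stood at 7.68 ± 2.50 CPM with talazoparib and 16.6 ± 2.74 CPM in controls (SD, n = 3 each; -1.11 ± 0.21 / -0.38; edgeR adjusted p = 0.000926), and trend-removed it did not pass (edgeR adjusted p = 0.0604). PIDD1, which recruits CASP2, rose (0.36 ± 0.11 / 0.00; edgeR adjusted p = 0.0153), which did not hold without talazoparib replicate 1 (0.36), control replicate 2 (0.28) or control replicate 3 (0.36). The adaptor CRADD stood at 0.21 / 0.22 (edgeR adjusted p = 0.187).

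Among 6 tested antagonists of the inhibitors and factors that mitochondria release, 2 rose and 4 did not pass, beside 26.8% higher among all genes. Trend-removed, 0 were higher and ENDOG was lower. HTRA2, a mitochondrial protease that binds XIAP, rose (0.38 ± 0.10 / -0.07; edgeR adjusted p = 0.00482). The endonuclease ENDOG rose (0.30 ± 0.10; edgeR adjusted p = 0.0280) and was lower trend-removed (-0.31; edgeR adjusted p = 0.00188); its rise was not called without talazoparib replicate 1 (0.32) or 2 (0.25) or control replicate 2 (0.18) or 3 (0.26), nor under total count scaling (0.22). DIABLO (SMAC), which frees caspases from XIAP, stood at 84.2 ± 8.26 CPM with talazoparib and 73.8 ± 5.79 CPM in controls (0.19 / -0.11; edgeR adjusted p = 0.0972). It passed as higher without talazoparib replicate 3 (0.26) or control replicate 1 (0.22). SEPTIN4, whose ARTS isoform binds XIAP, was at 0.47 ± 0.21 (edgeR adjusted p = 0.0740) and had no GC value, so no trend-removed value. XAF1 was not analysed here.

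Death receptors and the proteins that bring CASP8 to them were higher in 4 of 8 genes and lower in 0, beside 26.8% and 29.9% of all genes. TNFRSF1A, the TNF receptor, stood at 398 ± 19.7 CPM with talazoparib and 199 ± 14.0 CPM in controls (SD, n = 3 each; 1.0 ± 0.08 / 0.59; edgeR adjusted p = 5.67e-06). Its adaptor TRADD rose (0.65 ± 0.09 / 0.12; edgeR adjusted p = 0.000105), as did FADD, which docks CASP8 (0.35 ± 0.09 / -0.14; edgeR adjusted p = 0.00400), and the TRAIL receptor TNFRSF10B (0.26 ± 0.07 / 0.24; edgeR adjusted p = 0.00804). FADD was lower trend-removed (edgeR adjusted p = 0.0325), and TRADD did not pass in that fit. CFLAR, the inhibitory relative of CASP8, and the receptor FAS, both named after their values were seen, did not pass with the trend kept (-0.09 and -0.22) and were higher trend-removed (0.81, edgeR adjusted p = 7.5e-05, and 0.67, edgeR adjusted p = 0.0427). In that fit 4 of the 8 genes were higher and 1 lower. FAS had only 34 to 86 counts per library, and its groups overlapped in CPM.

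Of 7 tested partners of BIRC2 and BIRC3 in signalling, 6 rose and TRAF3 fell, beside 26.8% higher and 29.9% lower among all genes. Trend-removed, RELB and NFKB2 were higher and 0 were lower: the calls of TRAF2, TAB1, TRAF3 and, named after their values were seen, TRAF1 and MAP3K14 were lost (edgeR adjusted p = 0.942, 0.470, 0.323, 0.118 and 0.806, in that order). RELB and NFKB2, the pair of the non-canonical NF-kB route that BIRC2 and BIRC3 hold in check, stood at 37.5 ± 2.75 CPM with talazoparib against 20.1 ± 0.408 CPM in controls for RELB (SD, n = 3 each; 0.90 ± 0.10 / 0.37; edgeR adjusted p = 2.13e-05). NFKB2 stood at 213 ± 12.6 CPM with talazoparib against 137 ± 11.5 CPM in controls (0.63 ± 0.08 / 0.23; edgeR adjusted p = 6.33e-05). TRAF2, which recruits both ligases to TNF receptors, rose (0.40 ± 0.09 / -0.01; edgeR adjusted p = 0.00284), and so did TAB1 (0.43 ± 0.09 / 0.06; edgeR adjusted p = 0.00175). TRAF3, which holds MAP3K14 for degradation, fell by 0.20 ± 0.08 on the log2 scale (trend-removed -0.08; edgeR adjusted p = 0.0341), and that call was lost without talazoparib replicate 1 (-0.17) or control replicate 2 (-0.20) with the replicate block (-0.20, edgeR adjusted p = 0.0955), with DESeq2 and with no filter on low counts. RIPK3 was not analysed here.

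Of 8 caspase substrates that carry out steps of cell death, 2 rose, 2 fell and 4 did not pass, shares near those of all genes (26.8% higher and 29.9% lower). The pore-forming GSDMD rose (0.77 ± 0.09 / 0.31; edgeR adjusted p = 3.38e-05), as did the lipid scramblase XKR8 (0.43 ± 0.12 / -0.04; edgeR adjusted p = 0.00824), whose call was lost without control replicate 2 (0.36) or 3 (0.38). PANX1, the channel that caspases open, fell (-0.57 ± 0.09 / -0.35; edgeR adjusted p = 0.000166), and so did ROCK1, the kinase behind membrane blebbing (-1.02 ± 0.19 / -0.14; edgeR adjusted p = 0.00107). Trend-removed, the calls of ROCK1 and XKR8 were lost (edgeR adjusted p = 0.355 and 0.741). DFFA and DFFB, the inhibitor and the nuclease of caspase-activated DNA cleavage, both named after their values were seen, passed in that fit, DFFA as higher (0.25, edgeR adjusted p = 0.000898) and DFFB as lower (-0.44, edgeR adjusted p = 0.00339).

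**Figure D5:**
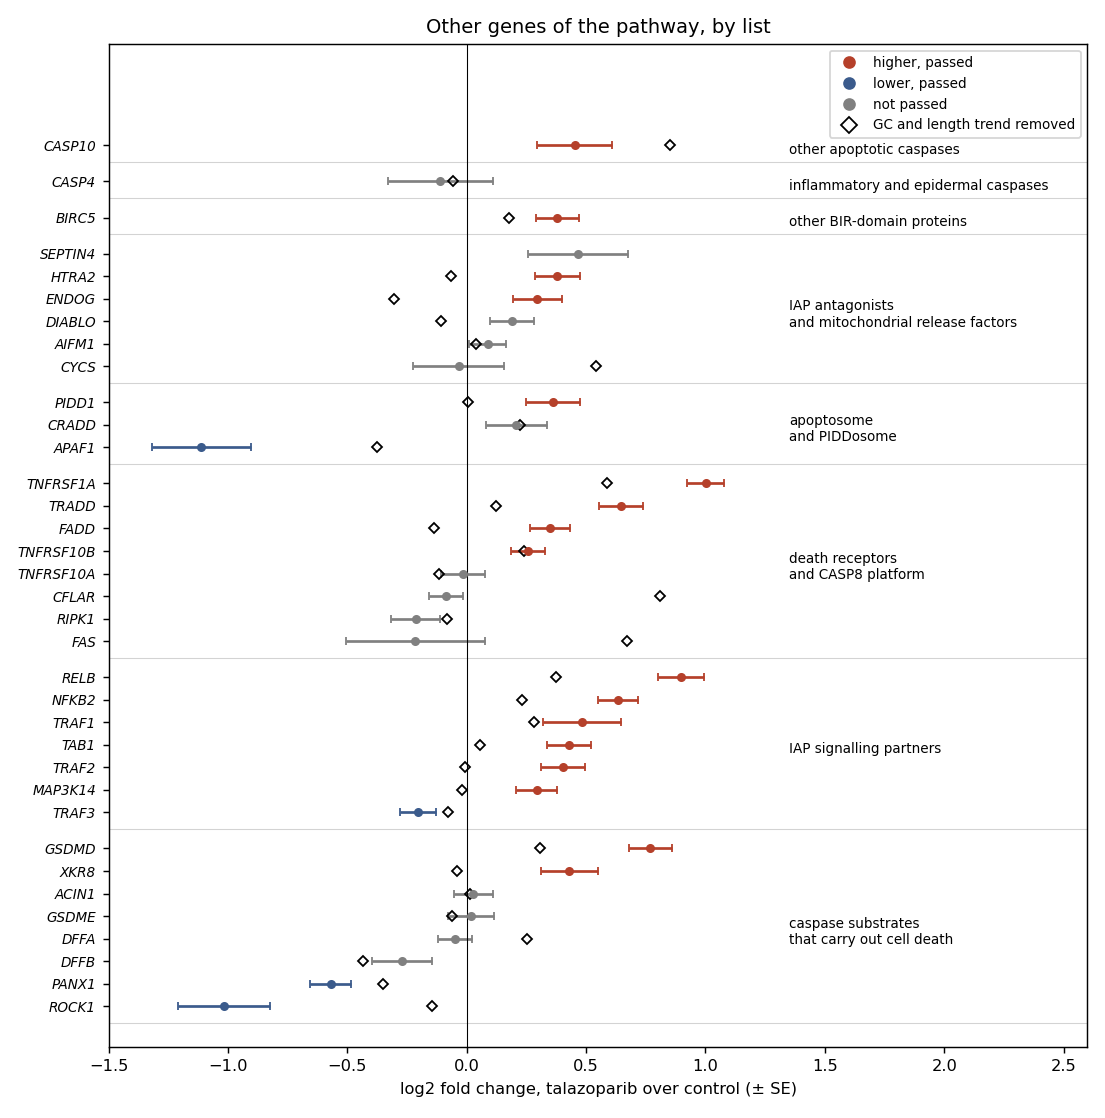
Log2 fold change (talazoparib over control, ± SE) of the 35 tested genes of the 8 other lists, red where higher, blue where lower and grey where the test was not passed, with the trend-removed value as an open diamond. Signalling partners of BIRC2 and BIRC3 are mostly red, and many diamonds lie nearer to 0 than the circles.

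For each of the 8 genes, the gene with the nearest profile over the 6 libraries was sought among 10069 genes outside the lists with a mean of at least 5 CPM. Nearness is the root mean square difference of log2 CPM after each gene's mean was subtracted. WDFY1 lay nearest to BIRC2 (0.04), AHR to BIRC3 (0.04), RIMKLB to XIAP (0.04) and USF3 to BIRC6 (0.06). VEGFB lay nearest to CASP9 (0.03), PITPNM2 to CASP8 (0.02), RNF135 to CASP6 (0.02) and EMP2 to CASP2 (0.02). With 6 libraries in 2 groups, such nearness mostly restates a shared fold change and is given as a description.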

How the data were processed

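Per the labels, total RNA was extracted with TRIzol and libraries made with a VAHTS Universal V6 kit. Trimmomatic, HISAT2, Cufflinks and HTSeq, with the build GRCh38, are listed in the submitters' processing notes. Not given in the sources used here are tool versions, the annotation and the strand setting. The authors deposited whole-number counts per gene symbol and FPKM. The deposited FPKM equal count over a gene length and the column total, and the implied lengths were whole within 0.01 nt for 99.95% of 21065 genes.

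The test on counts used edgeR 4.0.16 (R 4.3.3): filterByExpr (minimum count 10), TMM, robust quasi-likelihood fit, 3 against 3. The test was checked on simulated data with 200 changed genes. No trend over GC content or length was simulated, so the check does not cover one. SE is the absolute log2 fold change over the square root of F. GC content came from the longest GENCODE 29 transcript, available with length for 13162 of 14452 genes (91.1%); trends were natural splines (5 degrees of freedom) of log2 CPM (prior count 2) and entered as offsets. DESeq2 1.42.0 and limma 3.58.1 were alternatives. Named genes are the 8 genes, per list the 4 smallest adjusted p, genes called against their list's majority and untested genes, and the nearest gene to each of the 8. The genes and lists were chosen with earlier results of these data known. Gene coordinates are from GENCODE 29 (GRCh38), 1-based. Some genes of the lists and markers are not reported here.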

Additional observations from a re-analysis of the deposited data

How the results depend on the processing

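In all, 19 alternatives were run. The 4 lower and 1 higher calls among the 8 genes became 2 lower and 2 higher after removal of both trends, with or without the replicate block, 2 lower and 3 higher with GC alone removed (CASP6 joining, 0.41), and 2 lower with length alone removed. Lower calls numbered 5, CASP2 joining, under total count scaling and in both limma fits on FPKM. Without each library in turn, lower calls numbered 3 to 5 and higher calls 1. BIRC2 (-1.45 to -0.61), BIRC6 (-2.20 to -0.94) and CASP9 (0.27 to 0.49) kept their call in all 19.

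The replicate numbers are shared, but nothing says that they pair libraries: deviations of same-numbered libraries correlated at -0.09, -0.17 and 0.00. With the replicate block 3419 of all genes were higher and 4161 lower, against 3873 and 4327 without it, and calls of the 8 genes were as without it. With the replicate block and the trend removed, 2491 were higher and 2502 lower; trend removal alone gave 2930 and 2962.

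Directions that turned under trend removal are given where the gene was called in either of the fits compared. Turns with neither fit called are left out. Examples are DIABLO (-0.11 with GC and length), CASP6 (-0.19 with length alone) and CASP4 (0.17 with GC alone). Values follow as GC and length, the same with the replicate block, and GC alone. XIAP was at 0.20, 0.20 and 0.045, and HTRA2 at -0.065, -0.064 and -0.0043. ENDOG was at -0.31, -0.31 and -0.17, and VEGFB at -0.12, -0.12 and -0.023. With GC and length, and then the block, FADD was at -0.14 and -0.14, TRAF2 at -0.0060 and -0.0065, XKR8 at -0.040 and -0.040 and RIMKLB at 0.21 and 0.20. PIDD1 (-0.10) and PITPNM2, not called before (0.15) and lower here (-0.25), turned with GC alone, and TRAF3 (0.39) with length alone. The cause was not tested. BIRC3 had the lowest counts of the 8 genes, 37 to 134.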
